A study of Mus musculus with 7 samples.

Results

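Scavenger receptors of microglia were examined as a group of 9 genes, of 55341 in the table: Lrp1, Scarb1, Cd36, Msr1, Olr1, Colec12, Marco, Cd5l and Timd4. They were chosen by name, for the roles of their proteins in binding and taking up modified lipoproteins, dying cells and amyloid. Earlier results of these data were known when the genes were chosen. Every one of them was found in the table. Microglia, sorted as CD11b+CD45low cells, came from WT grafts (inside graft, 3 libraries) and from small pieces of host cortex close to them (outside graft, 4 libraries), and their RNA was sequenced in bulk. All hosts were 5xFAD mice on a C57BL/6 background, 14 weeks old and sampled 4 weeks after embryonic cortical cells of WT mice had been injected. The 5xFAD transgenes, human APP and PS1 with disease mutations, are driven by the neuronal Thy1 promoter, and the hosts of both groups carried them, so neither group is a transgene-free control. Whether a library came from 1 mouse or several, and whether libraries with the same number came from the same host, was not given in the sources used here, so P values measure the spread between these libraries.

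Scavenger receptors are surface proteins of unrelated structure that share a liking for polyanionic or lipid cargo. They internalize oxidized lipoproteins, apoptotic cells and aggregated proteins such as amyloid-β (Aβ), some alone and some with co-receptors. In the brain several of them have been studied as routes by which microglia bind or clear fibrillar Aβ, and the comparison here asked whether microglia that had entered the graft carried different amounts of their transcripts from microglia that stayed in host tissue.

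The libraries held between 23241114 and 25882122 counted reads inside the graft and between 18644807 and 24599193 outside it. Within each group every pair of libraries differed well beyond sampling of reads (chi-square over its degrees of freedom, 17.9 or more). The cells carried the transcripts of microglia: the summed level of 7 microglial markers was 31201 to 36617 CPM (counts scaled by TMM to a common library size) inside and 36433 to 39546 CPM outside. Transcripts used as markers of other myeloid cells were also counted. The staining that the study's methods refer to for this gate included Ly6C and Ly6G, surface markers of monocytes and neutrophils, which a gate on them would remove. Summed over 4 neutrophil markers the level was 4458, 464 and 9671 CPM in inside graft 1, 2 and 3, against 0.311 to 194.7 CPM outside, and over 8 monocyte markers it was 717, 81.0 and 1484 CPM against 6.56 to 28.3 CPM. The leading markers were S100a8 for neutrophils (208 to 4077 CPM inside) and Chil3 for monocytes (67.6 to 1189 CPM inside). Chil3 alone held most of the monocyte sum in each inside library (587, 67.6 and 1189 CPM). The sum of 7 markers of border-associated macrophages was 54.8, 10.3 and 73.5 CPM inside and 1.29 to 6.97 CPM outside, and none of the markers of these 3 cell types was at 0 in every library. Of the tested markers, 4 of 4 for neutrophils, 6 of 7 for monocytes and 6 of 6 for border-associated macrophages had a log2 fold change above 0 in edgeR, as did 49.2% of all tested genes. Not all of them moved together. Retnlg, a neutrophil marker, had 1.37, 0 and 2.61 CPM inside and was highest in outside graft 3 (3.10 CPM). Its log2 fold change was 0.43 in edgeR and -0.20 in voomWithQualityWeights. Ccr2, a monocyte marker, was lower in inside graft 2 (4.26 CPM) than in outside graft 2, 3 and 4 (6.76 to 18.1 CPM). At an adjusted P of 0.05 edgeR and voomWithQualityWeights called 0 of the 17 tested markers of these 3 cell types, with 14 and 10 at an unadjusted P below 0.05. The DESeq2 Wald test called 5 of the 17, all higher inside (2 for neutrophils, 1 for monocytes and 2 for border-associated macrophages). Of the 7 microglial markers, 0 had a log2 fold change above 0 in edgeR, with a median of -0.19. For these 7, edgeR and voomWithQualityWeights called 0, and the DESeq2 Wald test called P2ry12, lower inside (adjusted P = 0.0433). The neutrophil, monocyte and border-associated macrophage sums had the order 3, 1, 2 over the inside libraries, from high to low. Of the tested scavenger receptor genes below, Lrp1, Msr1 and Olr1 had this order inside, and Scarb1, Cd36, Colec12 and Cd5l did not. The part of such cells in the values below was not tested.

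**Figure D1:**
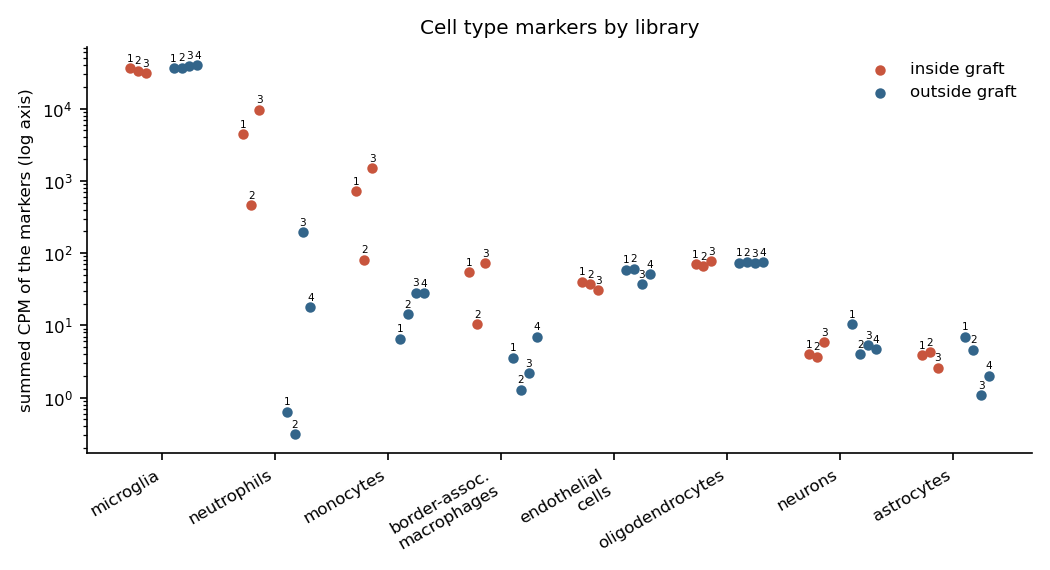
Summed CPM of marker genes of 8 cell types (log axis) in each of the 3 inside and 4 outside libraries, 1 point per library with its number. Microglial sums lie between 31201 and 36617 CPM inside and between 36433 and 39546 CPM outside. The neutrophil, monocyte and border-associated macrophage sums of all 3 inside libraries lie above those of the 4 outside libraries and are lowest in inside graft 2 among the inside ones.

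Of the 9 scavenger receptor genes, 7 had enough counts to be tested, and Marco and Timd4 did not. The 2 abundant genes, Lrp1 and Scarb1, were close between the groups, with log2 fold changes (inside relative to outside) of -0.13 and 0.15. Cd36, Msr1, Olr1 and Colec12 had log2 fold changes of 2.78, 1.34, 1.94 and 2.59, and Cd5l one of -2.80. After adjustment over all 15257 tested genes, 0 of the 7 passed 0.05 in edgeR's quasi-likelihood test, in limma's voomWithQualityWeights or in the DESeq2 Wald test. Over all tested genes these tests called 0.0983%, 0.492% and 2.75%. At an unadjusted P below 0.05, edgeR had 2 of the 7 (Cd36 and Msr1) and voomWithQualityWeights had 1 (Msr1), where 9.55% and 12.2% of all tested genes lay. The median log2 fold change of the 7 was 1.34 in edgeR and 1.47 in voomWithQualityWeights, against -0.01 in both over all tested genes. This median depended on which genes with few counts entered: in edgeR it was 0.15 over all 9 genes with no filter and 0.16 with at least 10 counts required in every library.

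**Figure D2:**
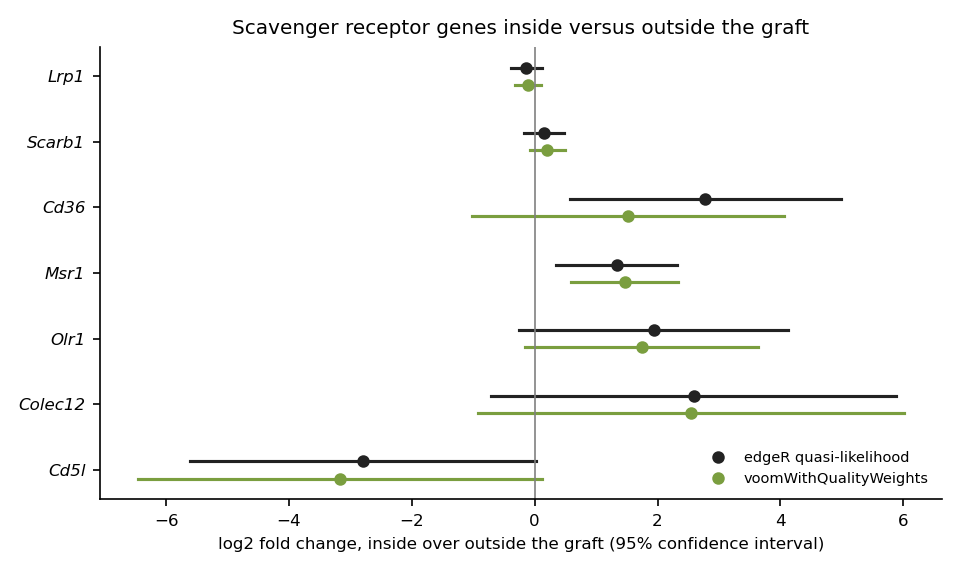
Log2 fold change (x axis, inside relative to outside) of the 7 tested genes, with 95% confidence intervals, from edgeR (black) and voomWithQualityWeights (green). The intervals of Lrp1 and Scarb1 lie within 1 of 0, those of Msr1 lie above 0 in both tests, that of Cd36 lies above 0 in edgeR only, and the other intervals include 0.

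Lrp1, a very large endocytic receptor for apolipoprotein E, proteases and Aβ, was by far the most abundant of the group. Its level was 1346, 1111 and 1363 CPM in inside graft 1, 2 and 3, and 1558, 1245, 1446 and 1338 CPM in outside graft 1, 2, 3 and 4. The groups overlapped, with the lowest value in inside graft 2 and the highest in outside graft 1. Means were 1273 ± 141 CPM (SD, n = 3) and 1397 ± 135 CPM (SD, n = 4). The log2 fold change was -0.13 with a 95% confidence interval from -0.39 to 0.12 (edgeR, adjusted P = 0.806).

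Scarb1, the receptor for high-density lipoprotein, ranked next in the group. It had 86.6, 89.3 and 73.7 CPM in the inside libraries and 90.4, 64.0, 69.0 and 76.6 CPM in the outside libraries. Outside graft 1 was the highest of all and outside graft 2 the lowest, so the groups overlapped. The means of 83.2 ± 8.34 CPM (SD, n = 3) and 75.0 ± 11.5 CPM (SD, n = 4) gave a log2 fold change of 0.15 with an interval from -0.18 to 0.48 (edgeR, adjusted P = 0.839). Lrp1 and Scarb1 were the 2 of the 7 tested genes whose edgeR interval lay wholly within 1 of 0, as it did for 55.1% of all tested genes.

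The Lrp1 gene lies on chromosome 10 (127538161 to 127621148 of GRCm38.p6, minus strand, 88 merged exons) and Scarb1 on chromosome 5 (125277087 to 125341094, minus strand). Reads were counted without strand, and although Gm16217 lies within the Lrp1 locus on the other strand, it shares no exon with Lrp1. Gm42633 overlaps Scarb1 on the same strand and shares no exon with it either. The Lrp1 promoter is shown because this gene stands so far above the rest in level, and that of Olr1, a gene of far lower level, is shown beside it. Both are the 250 bases before the RefSeq transcription start (GRCm38.p6, minus strand, 5′ to 3′), at chr10:127621149-127621398 and chr6:129507166-129507415, with matches to searched motifs in capitals.
Lrp1: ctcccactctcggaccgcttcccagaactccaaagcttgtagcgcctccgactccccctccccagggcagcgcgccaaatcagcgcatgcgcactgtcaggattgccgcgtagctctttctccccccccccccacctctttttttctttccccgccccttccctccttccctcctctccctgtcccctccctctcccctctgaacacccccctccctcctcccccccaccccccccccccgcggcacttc
Olr1: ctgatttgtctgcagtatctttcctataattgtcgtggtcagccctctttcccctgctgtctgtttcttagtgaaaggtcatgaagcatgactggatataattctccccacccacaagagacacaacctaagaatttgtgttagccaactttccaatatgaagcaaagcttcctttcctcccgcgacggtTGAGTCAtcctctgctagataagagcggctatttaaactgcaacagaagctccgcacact
The Lrp1 window has a GC content of 67.2%, above 86.5% of 32851 RefSeq promoter windows of that length, and 13 CpG dinucleotides against a median of 6. That of Olr1 has 45.2% GC, above 24.5% of the windows, and 6 CpG. Searched on both strands were the PU.1 motif GAGGAAG (10.6% of all windows hold it), the AP-1 motif TGANTCA (6.75%), TATAAA (12.4%) and, for PPAR-RXR, AGGTCA repeated after 1 base (0.0335%). The Lrp1 window held no match. That of Olr1 held 1 match to AP-1, which begins 60 bases before the start. Windows were matched for 6 of the 9 genes. Those of Marco and Cd5l, genes with few reads, each held 1 match to PU.1, which begins 146 and 67 bases before the start, and those of Cd36 and Timd4 held none. A match is only a match of letters.

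Cd36, a class B receptor for oxidized lipoprotein, fatty acids and fibrillar Aβ that often acts with Toll-like receptors, had 0.864, 11.9 and 21.2 CPM in inside graft 1, 2 and 3 (22, 269 and 503 counts). The outside libraries had 0.320, 0.489, 1.85 and 3.89 CPM (6, 11, 46 and 96 counts). Inside graft 2 and 3 stood above every outside library, but inside graft 1 lay below outside graft 3 and 4, so the groups overlapped. The means were 11.3 ± 10.2 CPM (SD, n = 3) and 1.64 ± 1.65 CPM (SD, n = 4), a ratio of 6.92. In edgeR the log2 fold change was 2.78 (SE 0.99, interval from 0.57 to 4.98, adjusted P = 0.363). It was 2.76 in edgeR without a filter (adjusted P = 0.0725) and 2.81 in the DESeq2 Wald test (adjusted P = 0.0589). In voomWithQualityWeights, which weighs each library by its fit, it was 1.52 with an interval from -1.02 to 4.05 (adjusted P = 0.677). Without inside graft 3 it was 1.95 in edgeR and 0.86 in voomWithQualityWeights, and without inside graft 1 it was 3.33 and 3.23, with adjusted P values of 0.765, 0.869, 0.224 and 0.0652. The order of the inside libraries in Cd36 (3, 2, 1) was not that of the neutrophil, monocyte and border-associated macrophage sums (3, 1, 2). The sum of 5 endothelial markers, cells that also use Cd36, was 30.7 to 40.4 CPM inside and 37.5 to 61.2 CPM outside. The part of any of these cell types in the Cd36 values was not tested. In bulk libraries more cells that carry a transcript and more of it in each cell cannot be told apart. The gene lies on chromosome 5 (17781690 to 17888801, minus strand) and no annotated gene overlaps it.

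**Figure D3:**
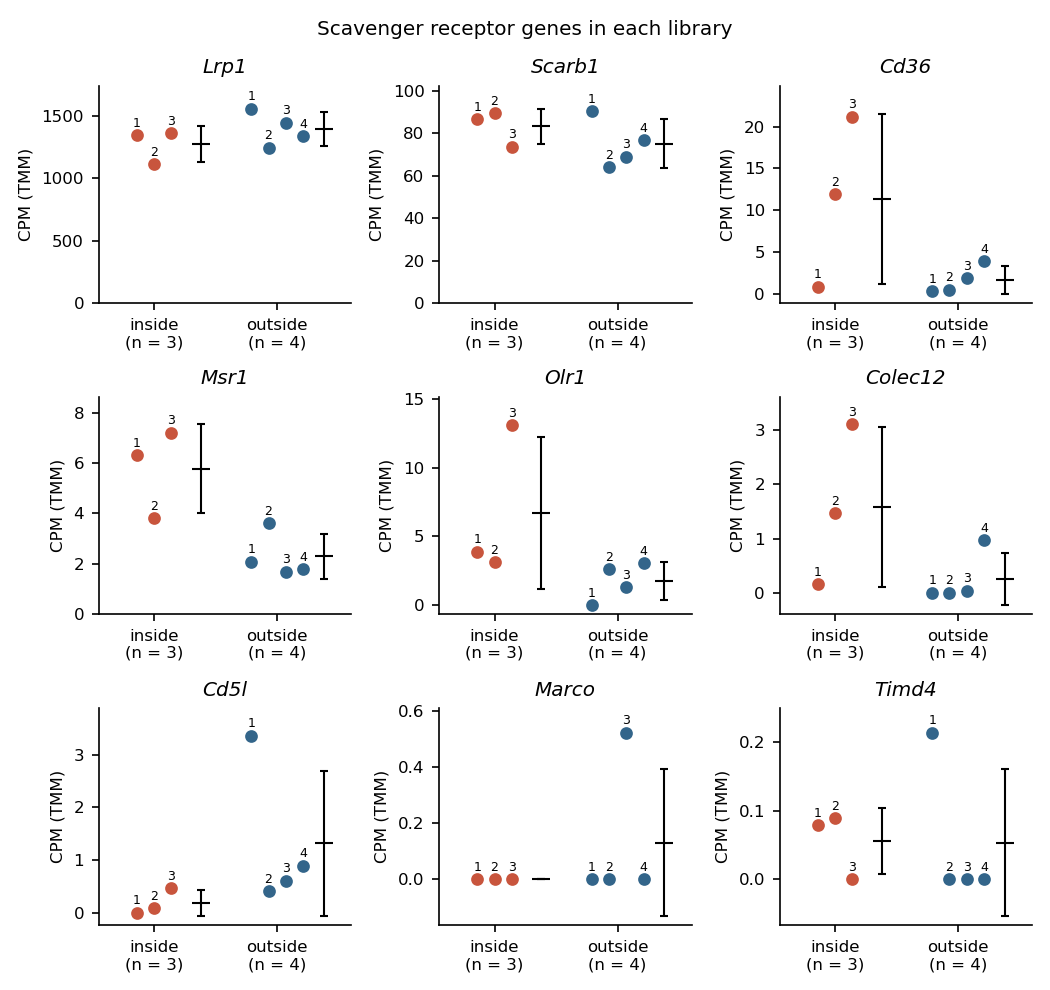
Level of each of the 9 scavenger receptor genes in CPM (TMM-normalized, linear axis) in the 3 inside (red) and 4 outside (blue) libraries, with library numbers and the mean and SD of each group in black. Msr1 and Olr1 are the 2 genes in which all inside libraries lie above all outside libraries, with a gap of 3.82 against 3.60 CPM and of 3.11 against 3.04 CPM, and Marco and Cd5l are led by single outside libraries.

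Msr1, Colec12 and Marco are class A receptors, trimers held together by a collagen-like stalk that binds polyanionic cargo. In the coding sequence such a stalk appears as a run of codon triplets that begin with a glycine codon (GGN). The longest in-frame run of such triplets in the GENCODE M21 transcript with the longest coding sequence was 25 repeats in Msr1, 49 in Colec12 and 81 in Marco, and 1 to 3 repeats in the other 6 genes. The first 23 repeats of the run, 207 bases of spliced coding sequence, are printed for Msr1, which had reads in every library, and for Marco, which had almost none, with the first 2 letters of each glycine codon in capitals. The whole run spans coding bases 829 to 1053 in Msr1 and 529 to 1257 in Marco.
Msr1: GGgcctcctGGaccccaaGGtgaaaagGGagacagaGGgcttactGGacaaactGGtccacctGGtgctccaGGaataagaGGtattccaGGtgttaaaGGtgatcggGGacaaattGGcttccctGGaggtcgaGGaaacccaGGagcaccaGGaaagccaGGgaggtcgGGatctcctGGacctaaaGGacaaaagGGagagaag
Marco: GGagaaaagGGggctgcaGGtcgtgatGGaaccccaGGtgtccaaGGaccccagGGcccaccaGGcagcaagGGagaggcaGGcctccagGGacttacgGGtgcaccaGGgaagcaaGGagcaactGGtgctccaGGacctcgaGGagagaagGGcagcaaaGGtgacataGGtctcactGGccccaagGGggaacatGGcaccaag

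Msr1, the macrophage receptor for acetylated lipoprotein and fibrillar Aβ, had 6.32, 3.82 and 7.20 CPM in inside graft 1, 2 and 3 (161, 86 and 171 counts). In the outside libraries it had 2.08, 3.60, 1.69 and 1.78 CPM (39, 81, 42 and 44 counts). The 3 inside values lay above all 4 outside values, as in 5.65% of all tested genes, and the lowest inside value of 3.82 CPM was close to the highest outside value of 3.60 CPM. Scaled by library size alone, without TMM factors, these became 3.62 and 3.64 CPM and the groups overlapped. Means were 5.78 ± 1.76 CPM (SD, n = 3) and 2.29 ± 0.892 CPM (SD, n = 4), a ratio of 2.53. Its log2 fold change was 1.34 in edgeR (SE 0.44, interval from 0.35 to 2.32, adjusted P = 0.313) and 1.47 in voomWithQualityWeights (interval from 0.60 to 2.34, adjusted P = 0.134). With 1 library left out it stayed between 1.15 and 1.64 in edgeR, with adjusted P values from 0.242 to 0.657, the narrowest such range among the 5 genes with a log2 fold change beyond 1 in either direction. Inside the graft Msr1 had the order 3, 1, 2, which is also that of the neutrophil, monocyte and border-associated macrophage sums, whose part was not tested. Outside the graft the neutrophil sums were 0.640, 0.311, 194.7 and 18.1 CPM in outside graft 1, 2, 3 and 4, and their part in the Msr1 values there was not tested either. Msr1 lies on chromosome 8 (39581685 to 39642673, minus strand) with no overlapping gene.

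Colec12, a class A receptor with a lectin domain that is best known from vascular cells, had 0.157, 1.46 and 3.12 CPM inside (4, 33 and 74 counts). Outside it had 0 counts in outside graft 1 and 2, 1 count in outside graft 3 and 24 counts (0.972 CPM) in outside graft 4. Where a library had 0 counts, up to 3 counts are allowed by counting error, which is 0.118 to 0.160 CPM over the libraries. Inside graft 1 lay below outside graft 4, so the groups overlapped, and the order inside (3, 2, 1) was that of Cd36. The means were 1.58 ± 1.48 CPM (SD, n = 3) and 0.253 ± 0.480 CPM (SD, n = 4), and the log2 fold change of 2.59 had an interval from -0.70 to 5.88 (edgeR, adjusted P = 0.649). It was 1.63 without inside graft 3 and 3.13 without inside graft 1 (adjusted P = 0.933 and 0.623), and without outside graft 4 the gene did not pass the filter. Summed over 6 markers of fibroblasts and mural cells the level was 0.510 to 1.95 CPM inside and 0.133 to 3.68 CPM outside. Over 5 endothelial markers, mostly Pecam1 and Kdr, it was 30.7 to 40.4 CPM inside and 37.5 to 61.2 CPM outside. The part of such cells in the Colec12 values was not tested. The gene lies on chromosome 18 (9707595 to 9882644, plus strand), and none of the 7 annotated genes that overlap it shares an exon with it.

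Marco, the class A receptor of splenic marginal-zone and alveolar macrophages, had 0 counts in all 3 inside libraries and in outside graft 1, 2 and 4, and 13 counts (0.523 CPM) in outside graft 3. Inside the graft a level of up to 0.118 to 0.133 CPM per library would still be allowed by 0 counts. The gene (chromosome 1, 120474538 to 120505024, minus strand) did not pass the filter and no fold change is given.

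Olr1, the lectin-like receptor for oxidized low-density lipoprotein, had 3.89, 3.11 and 13.1 CPM inside (99, 70 and 311 counts). Outside it had 0, 2.62, 1.29 and 3.04 CPM (0, 59, 32 and 75 counts). It was the other gene whose inside values were all above the outside ones, by 3.11 against 3.04 CPM, and with library size alone this too was lost (2.95 against 3.05 CPM). Inside graft 3 was far above all other libraries, and outside graft 1, the smallest library, had none. The means of 6.70 ± 5.56 CPM (SD, n = 3) and 1.74 ± 1.38 CPM (SD, n = 4) gave a log2 fold change of 1.94 with an interval from -0.25 to 4.13 (edgeR, adjusted P = 0.588). Without inside graft 3 it was 1.00 (adjusted P = 0.937). The inside order 3, 1, 2 was again that of the neutrophil, monocyte and border-associated macrophage sums, and their part was not tested. Olr1 lies on chromosome 6 (129485244 to 129507165, minus strand) with no overlapping gene.

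Cd5l and Timd4 are typical of macrophages resident in liver, spleen and peritoneum: Cd5l is a secreted scavenger-receptor-cysteine-rich protein that binds lipids and apoptotic debris, and Timd4 is a phosphatidylserine receptor for apoptotic cells. Cd5l had 0, 0.0888 and 0.463 CPM inside (0, 2 and 11 counts) and 3.36, 0.40, 0.604 and 0.891 CPM outside (63, 9, 15 and 22 counts). Outside graft 1 was far above the rest, and the groups overlapped, since inside graft 3 lay above outside graft 2. The means were 0.184 ± 0.246 CPM (SD, n = 3) and 1.31 ± 1.38 CPM (SD, n = 4). The log2 fold change of -2.80 had an interval from -5.62 to 0.02 (edgeR, adjusted P = 0.529), and it was -1.76 without outside graft 1 and -4.76 without inside graft 3, with adjusted P values of 0.690 and 0.445. Cd5l lies on chromosome 3 (87357881 to 87371073, plus strand).

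Timd4 (chromosome 11, 46810800 to 46844332, plus strand) had 2, 2 and 0 counts inside and 4, 0, 0 and 0 counts outside, all near the 3 counts that 0 allows, and no fold is given. Its highest value, 0.213 CPM, was in outside graft 1. This library was also the only one with counts of Clec4f (1.28 CPM), the most abundant of 3 markers of macrophages resident in other organs. The other 2 of these markers, Vsig4 and Gata6, were at 0 in every library. Reads found only in outside graft 1 were not limited to such genes: Lrp1b, Lrp2, Dcn and Rgs5 had counts there and in no other library. Although the smallest library, it had the most genes with a count (21407, against 19554 to 20417 in the others). It also had the lowest weight in voomWithQualityWeights (0.448). The source of these reads was not tested.

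To compare levels between genes, counts were divided by the summed exon length given with the table (RPKM, which is CPM per kilobase of exon). Inside the graft the mean RPKM was 71.9 for Lrp1, 9.79 for Scarb1, 3.16 for Cd36, 1.88 for Olr1, 0.911 for Msr1, 0.181 for Colec12, 0.0904 for Cd5l, 0.0257 for Timd4 and 0 for Marco. Ranges over the libraries did not overlap between Lrp1 and Scarb1, Scarb1 and Cd36, or Msr1 and Colec12, and the other neighbors in this order did not differ beyond their spread. Outside the graft the order was Lrp1 (78.8), Scarb1 (8.82), Cd5l (0.645), Olr1 (0.486), Cd36 (0.456), Msr1 (0.361), Marco (0.0679), Colec12 (0.0290) and Timd4 (0.0246). There, only Lrp1 and Scarb1 were set apart from the gene that followed them.

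Lrp1 took 85.8%, 80.1% and 79.4% of the summed RPKM of the 9 genes in inside graft 1, 2 and 3, and 87.3%, 88.5%, 89.2% and 86.5% in outside graft 1, 2, 3 and 4. All 3 inside values lay below all 4 outside values, with means of 81.8% and 87.9%, and since this share depends on the other genes' levels in the same libraries, no test was made of it. Next after Lrp1 and Scarb1 in RPKM was Olr1 in inside graft 1, Cd36 in inside graft 2 and 3, Cd5l in outside graft 1, Olr1 in outside graft 2 and Cd36 in outside graft 3 and 4.

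**Figure D4:**
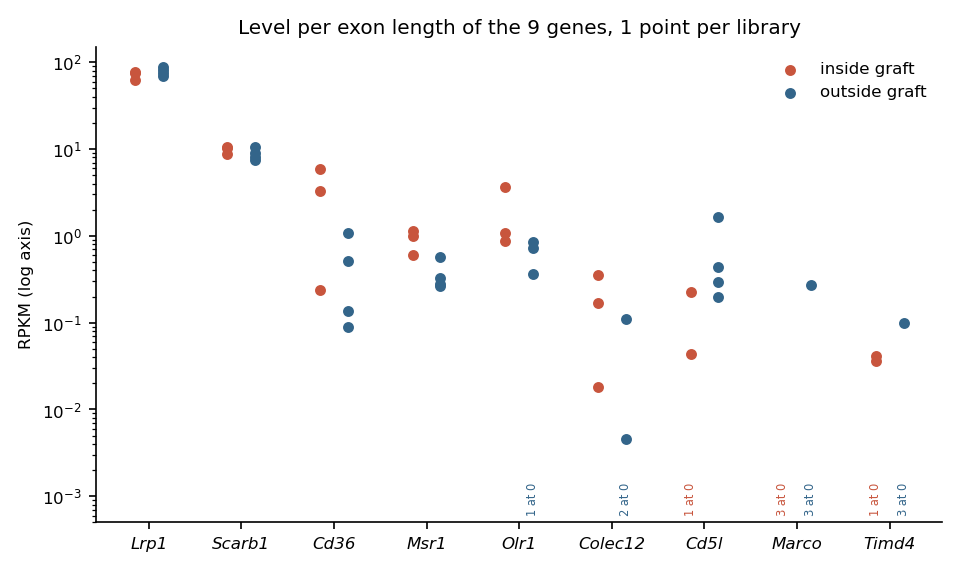
RPKM of the 9 genes (log axis), 1 point per library, inside the graft in red and outside in blue, with the number of libraries at 0 written at the foot. Lrp1 lies between 62.7 and 87.9 RPKM and Scarb1 between 7.53 and 10.6 RPKM in every library, and the other 7 genes stay below 6 RPKM and spread far more.

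Related genes of uptake were compared in 5 lists, 63 genes in all, of which 45 were tested. In edgeR 1 of them was higher inside the graft and 0 were lower, and in voomWithQualityWeights 4 were higher and 0 lower, against 0.0983% and 0.433% of all tested genes called as higher. The 4 were Axl, Clec7a, Cd300lf and Tlr2. The lists were chosen with earlier results of these data known, so these counts do not measure an enrichment of uptake genes.

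The list of other scavenger receptors had 17 genes, 11 of them tested, with a median log2 fold change of 0.29, and 8 of the 11 were above 0, as were 49.2% of all tested genes. Clec7a, the β-glucan receptor dectin-1, had 255, 399 and 154 CPM inside and 52.3, 101.7, 34.0 and 58.5 CPM outside, with no overlap, and log2 fold changes of 2.13 in edgeR (adjusted P = 0.0682) and 2.27 in voomWithQualityWeights (adjusted P = 0.0335). Its inside order was 2, 1, 3, the reverse of that of the neutrophil, monocyte and border-associated macrophage sums, whose part was not tested. Cd163, the hemoglobin scavenger receptor, had a log2 fold change of 3.36 (edgeR, adjusted P = 0.572) but 0 counts in inside graft 2. Cd44, a hyaluronan receptor, had 17.9, 10.9 and 27.9 CPM inside and 2.01 ± 1.36 CPM (SD, n = 4) outside, with a log2 fold change of 3.22 (edgeR, adjusted P = 0.109). Its adjusted P was 0.0546 in voomWithQualityWeights and 0.000182 in the DESeq2 Wald test.

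Among receptors for phosphatidylserine, 6 of 10 genes were tested, with a median log2 fold change of 0.80. Axl, a receptor tyrosine kinase that binds apoptotic cells through Gas6, had 279, 508 and 237 CPM inside and 67.1, 78.9, 34.2 and 80.2 CPM outside, and its log2 fold change was 2.39 in edgeR (adjusted P = 0.0357) and 2.48 in voomWithQualityWeights (adjusted P = 0.0172). Cd300lf had 18.6, 35.2 and 25.8 CPM inside and 6.46 to 9.52 CPM outside, with log2 fold changes of 1.73 (edgeR, adjusted P = 0.0546) and 1.62 (voomWithQualityWeights, adjusted P = 0.0374). In both genes inside graft 2, the inside library with the fewest transcripts of other myeloid cells, was the highest. The part of such cells in these values was not tested. Cd300lb had a log2 fold change of 1.71 (edgeR, adjusted P = 0.360).

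In the gene family to which Lrp1 belongs, 6 of 10 genes were tested, with a median log2 fold change of -0.06 and 0 called. Lrp5 and Lrp6, the Wnt co-receptors, had log2 fold changes of -0.37 and 0.28 (edgeR, adjusted P = 0.723 and 0.699).

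Of 15 co-receptors and adaptors of these receptors, 13 were tested, with a median log2 fold change of 0.07. Tlr2, a Toll-like receptor that can signal together with Cd36, had 330.0, 406 and 362 CPM inside and 251, 245, 213 and 235 CPM outside, with log2 fold changes of 0.64 (edgeR, adjusted P = 0.0728) and 0.66 (voomWithQualityWeights, adjusted P = 0.0367). Cd9, a tetraspanin partner of Cd36, and Lrpap1, the chaperone of Lrp1, had log2 fold changes of 0.57 and 0.43 (edgeR, adjusted P = 0.330 and 0.406). Of 11 transcription factors and regulators of lipid uptake, 9 were tested and 0 passed in edgeR or voomWithQualityWeights, with a median of -0.02. The 3 with the largest log2 fold changes were Nr1h3 at 0.99, Srebf2, a driver of sterol synthesis genes, at 0.72, and Maf at -0.30 (edgeR, adjusted P = 0.725, 0.105 and 0.50). The DESeq2 Wald test did call Srebf2 (adjusted P = 0.0016), which had 57.6 to 62.3 CPM inside and 29.5 to 41.0 CPM outside.

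**Figure D5:**
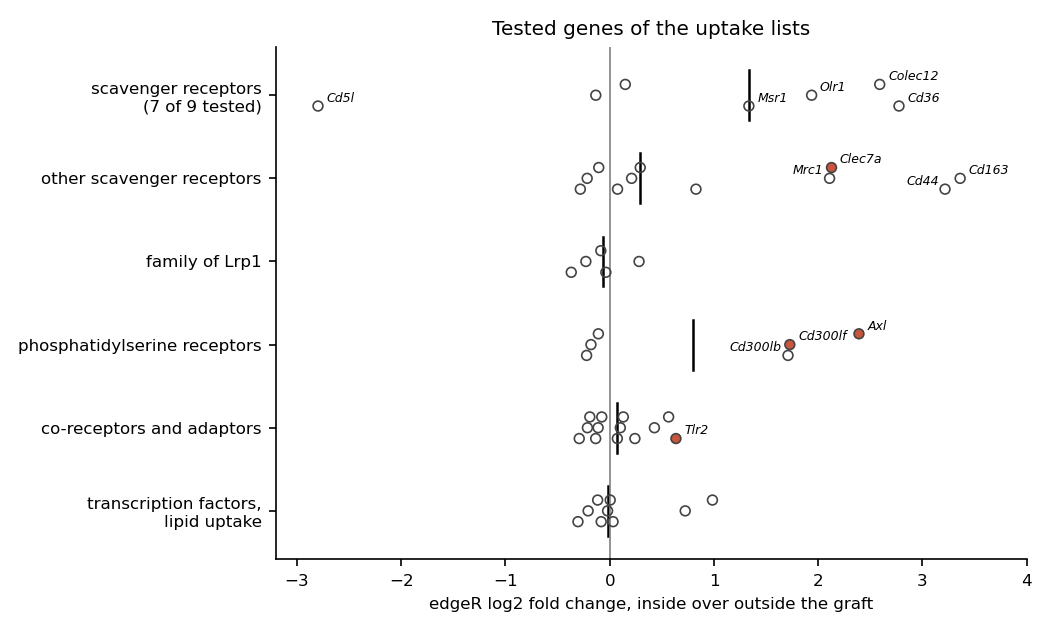
Log2 fold change in edgeR (x axis, inside relative to outside) of the tested genes of the scavenger receptor group and of 5 related lists, with the median of each as a black line and genes that either edgeR or voomWithQualityWeights called at 0.05 filled. The filled genes are Axl, Cd300lf, Clec7a and Tlr2, and none of the 7 scavenger receptor genes in the top row is filled. In the row of the Lrp1 family 1 tested gene is not drawn.

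For each tested gene the 3 genes with the most similar pattern were looked for among 13142 or 13143 candidates with a mean of at least 1 CPM, by Pearson's r of log2 CPM over the 7 libraries. Values this high are found by searching so many genes and describe these 7 libraries only. For Lrp1 they included Gm16153 and Anks1 (r = 0.990 and 0.988), and for Scarb1 Inppl1, Mrgpre and Tctn1 (0.966, 0.966 and 0.965). For Msr1 they were Tagln2, Neil3 and Cxcr4 (0.976, 0.975 and 0.975), and for Cd36 Tmem191c, Nup37 and Kat7 (0.971, 0.968 and 0.956). For Olr1 they were Rilp, Gm47484 and Dusp5 (0.998, 0.992 and 0.990), for Colec12 1700067K01Rik, Pfkp and D130017N08Rik (0.959, 0.956 and 0.952), and for Cd5l Gm17705, Fbrsl1 and Ctnnbip1 (0.990, 0.988 and 0.987). No gene stood among the 3 for more than 1 member, and no member stood among the 3 of another.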

How the data were processed

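Bulk RNA-seq counts of sorted microglia (3 inside and 4 outside libraries) were analysed, with groups and numbers from the sample titles. Per the labels, cDNA was made with the SMARTer Ultra Low Input RNA Kit and libraries with Nextera XT, and neither marks strand. The authors deposited raw counts per gene, without normalization, made with STAR 2.7.2a and featureCounts 1.6.2 on GRCm38.p6 with a GENCODE annotation, after bcl2fastq 2.18, as named in the submitters' processing notes. Reads on several loci were not counted and strand was not used, so antisense reads over an exon cannot be told apart. Reads carry no molecular identifiers, so floors and intervals cover counting error only.

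From these counts, TMM-scaled CPM, RPKM (over the summed exon length of all isoforms in the table, which lowers genes with long minor isoforms) and tests came from DESeq2 1.42.0, limma 3.58.1 and edgeR 4.0.16 under R 4.3.3. After filterByExpr, 15257 genes were fitted with edgeR's quasi-likelihood test, and with voomWithQualityWeights as in the study's methods, whose threshold of 0.01 was an alternative to 0.05. P values were adjusted by Benjamini-Hochberg over all tested genes. SEs of edgeR fold changes are those implied by its F statistic. The scripts were tested on simulated counts with known changes. Promoters came from RefSeq (GRCm38.p6) and coding sequences from GENCODE. Named genes were the 9 members, in each list the genes past 0.05 and the 3 with the largest absolute log2 fold change, the 3 most similar genes per tested member, and leading markers. The members and lists were chosen with earlier results of these data known. No batch was given in the labels. A few named genes that this rule would include are not reported here, though they stay in the fits, counts, sums and medians.

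Same-numbered inside and outside libraries correlated at 0.09 at most in their deviations from the group means. Such values cannot show whether 2 libraries share a host, and the labels do not say, so the numbers were not used as a pairing. Alternatives were other scalings, filters, tests and thresholds, the replicate block, and each library left out.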

Additional observations from a re-analysis of the deposited data

Results flagged for a closer look

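Over the 4 outside libraries, 24 values were examined for 1 library far from the other 3, by Dixon's ratio of the gap to the range. At its 95% critical value 6 were found. Chance alone would give 1.2 only for independent, normally spread values, which was not checked. For Marco, Timd4 and the summed markers of macrophages resident in other organs, the other 3 libraries were at 0. The ratio is then 1 whatever the value, so these flags were fixed in advance. Of the scavenger receptor genes, Cd5l (3.36 CPM) and Timd4 (0.213 CPM) stood apart in outside graft 1, which also stood apart in the summed markers of macrophages resident in other organs (1.28 CPM, all of it Clec4f). That library had the most genes with a count (21407), and genes of other kinds also had reads only there. Marco (0.523 CPM) stood apart in outside graft 3, as did the summed neutrophil markers (194.7 CPM). Colec12 (0.972 CPM) stood apart in outside graft 4. Timd4, Marco and Colec12 rest on 4, 13 and 24 counts in these libraries.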

How the results depend on the processing

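The sign of the log2 fold change was kept by all 7 tested scavenger receptor genes under every alternative that could be computed for them, and 0 passed an adjusted P of 0.05 except under the replicate block. Same-numbered libraries correlated at -0.04, 0.09 and 0.07 in their deviations from the group means, none above 0.1. Libraries with different numbers correlated at -0.117 to 0.0637, so the values of 0.09 and 0.07 were the highest. These values cannot show whether same-numbered libraries share a host, which is not known, so they were not treated as pairs. With this replicate block, for which outside graft 4 has no partner and was dropped, 1 of the 7 was called by voomWithQualityWeights (Cd36, log2 fold change 3.76, adjusted P = 0.0116, against 0.0652 to 0.869 under its other alternatives) and 0 by edgeR, with 265 and 43 genes called over the whole table and 10 and 2 uptake genes.

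The median log2 fold change of the group fell to 0.15 without a filter, where Marco and Timd4 enter, and to 0.16 with at least 10 counts in every library, which leaves only genes counted everywhere. Over the whole table edgeR called 366 and 92 genes with these filters, 0 at an adjusted P of 0.01 (1457 at an unadjusted P below 0.05) and 0 to 73 with 1 library left out, and the DESeq2 Wald test 420. The fit with voomWithQualityWeights called 225 and 211 genes with these filters, 3 at 0.01, 10 without quality weights and, with 1 library left out, 1 to 207. Of the uptake genes, edgeR called 9 without a filter, 5 with at least 10 counts, 0 at 0.01 and 0 to 2 with 1 library left out, DESeq2 7, and voomWithQualityWeights 7 without a filter, 0 at 0.01, 1 without weights and 0 to 7 with 1 library left out. The cause was not tested. Without division by length, Lrp1 took 92.1% of the group's summed level inside and 94.4% outside the graft. At this depth, differences in Marco and Timd4 were not detectable.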
